A study of Mus musculus with 8 samples.

Results

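The genes described here are 8 nuclear receptors and 2 PGC1 coactivators, chosen by symbol, in ribosome-bound RNA of mouse lung endothelium. They are Nr3c1, Rxra, Pparg, Ppard, Ppara, Nr4a1, Nr2f1 and Nr2f2, with Ppargc1a and Ppargc1b, and all 10 were among the 23238 gene symbols measured. The samples were 8 lung libraries from C57BL/6J mice. The 4 control libraries came from Cdh5-CreERT2; RPL22tm1.1Psam mice kept in room air, and the other 4, called Sox17fl/fl hypoxia libraries here and Sox17-deleted hypoxia in the plots, came from Cdh5-CreERT2;Sox17fl/fl;RPL22tm1.1Psam mice kept in hypoxia. Tamoxifen (2 mg, 5 daily doses) was given to both groups when the mice were 8 weeks old, and from 10 weeks they spent 3 weeks in room air or hypoxia. Cdh5-CreERT2 is a tamoxifen-inducible recombinase driven by the VE-cadherin promoter of endothelial cells, and the RiboTag allele of RPL22 adds a haemagglutinin tag to ribosomes wherever the recombinase has acted. Genotype and oxygen differed together, so their parts in a difference cannot be told apart, and neither can fewer cells of a type and less RNA per cell.

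Nuclear receptors are transcription factors whose activity is set by small lipophilic ligands or, in orphan receptors, by their own abundance. Many bind DNA as heterodimers with the retinoid X receptor, and they act through corepressors such as NCOR1 and coactivators such as the PGC1 proteins, which drive mitochondrial gene programmes. In endothelium the PPARs are known for control of lipid handling and inflammation, COUP-TFII (Nr2f2) for venous and lymphatic identity, and the glucocorticoid receptor (Nr3c1) for anti-inflammatory signalling.

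Library totals ranged from 7000313 to 12913304 counts, so 3 counts, used as the smallest level set apart from 0, were worth 0.232 to 0.429 CPM (counts per 1000000 counts of the library). Sox17, the targeted gene, had 2442 to 3072 counts in control libraries and 6 to 473 in Sox17fl/fl hypoxia libraries. Genes with at least 1 count numbered 9821 to 10429 and 8019 to 8708 (two-sided exact permutation p = 0.0286, which this group size cannot go below, and 0.107 adjusted over 15 library measures). The pan-endothelial markers, 15 genes that include Cdh5 and Pecam1, summed to 13952 to 15440 CPM in controls and 10013 to 15987 CPM in Sox17fl/fl hypoxia libraries. Alveolar type 2 cell markers, a sign of RNA from other lung cells, summed to 983 to 1310 and 2082 to 4207 CPM, and club and ciliated cell markers to 1755 to 2670 and 3948 to 6054 CPM. The part of these other cells in the values that follow was not tested. Levels are CPM of the library total, and since 3′ tag counts do not grow with transcript length, genes were compared without dividing by it.

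Of the 10 genes, 4 had counts in every library and 6 were at 0 in at least 1 library. In the controls Nr3c1 stood highest at 229 ± 83.7 CPM (SD, n = 4), followed by Nr2f2 at 112 ± 25.6, Rxra at 45.9 ± 26.1 and Nr4a1 at 13.8 ± 7.73 CPM. The ranges of Nr3c1 and Nr2f2 overlapped, whereas those of Nr2f2 and Rxra, and of Rxra and Nr4a1, did not. Ppard, Ppara, Pparg, Ppargc1a, Nr2f1 and Ppargc1b followed at means of 6.52 CPM and below, and each overlapped its neighbours. In the Sox17fl/fl hypoxia libraries the same 4 genes led in the same order, but every neighbouring pair among the 10 overlapped.

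**Figure D1:**
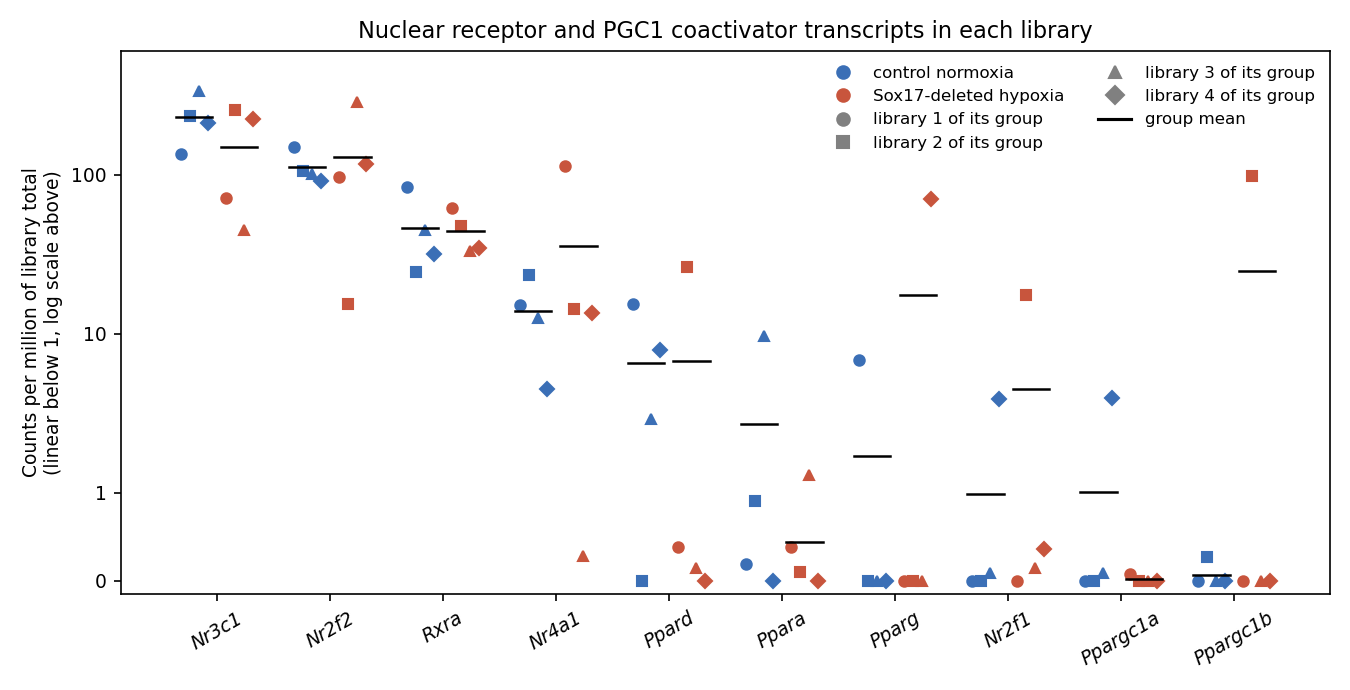
Level of each gene in each library, in CPM of the library total (linear below 1, log scale above), with blue for the 4 control and red for the 4 Sox17fl/fl hypoxia libraries, a marker shape for each library number and a black line at the group mean. Nr3c1, Nr2f2 and Rxra had counts in all 8 libraries, while the mean of Ppargc1b and Pparg in Sox17fl/fl hypoxia libraries is set by 1 library each.

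None of the 10 genes was called different between the groups. The expression filter of edgeR was passed by 5 of them (Nr3c1, Nr2f2, Rxra, Nr4a1 and Ppard). Of these 5, 0 passed an edgeR quasi-likelihood adjusted p of 0.05, where 0 of all 8282 tested genes did (0%), and 0 had an unadjusted p under 0.05, where 424 genes did (5.12%). For none of the 5 did the groups fail to overlap, against 6.59% of all tested genes (1.63% higher and 4.96% lower in Sox17fl/fl hypoxia). DESeq2 on all genes called 469 genes, DESeq2 on the filtered genes 155 and limma-voom 44. None of these was among the 10, of which DESeq2 tested 5. Sox17, the targeted gene, was not called by the edgeR fit or by limma-voom, whereas DESeq2 called it on all and on filtered genes. The lack of a call thus does not show that a gene was unchanged.

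Nr3c1 encodes the glucocorticoid receptor, a cytoplasmic receptor that enters the nucleus on binding cortisol or corticosterone. The gene lies on chromosome 18, 39410545 to 39519421, minus strand (GRCm38). It had 135, 234.2, 337 and 209.9 CPM in control libraries 1 to 4 and 70.9, 254, 44.7 and 223 CPM in Sox17fl/fl hypoxia libraries 1 to 4. Sox17fl/fl hypoxia libraries 1 and 3 lay below every control, and libraries 2 and 4 lay inside the control range. The log2 fold change, Sox17fl/fl hypoxia minus control, was −0.65 (SE 0.55, edgeR adjusted p = 1.00). Its sign was negative in all 20 alternatives, from −0.99 without Sox17fl/fl hypoxia library 2 to −0.37 without library 3. The median of all genes was itself −0.71 with limma-voom, −0.70 with limma-voom and sample weights, and −0.57 with the replicate number as a block. With sample weights Nr3c1, at −0.65, was not below that median. A negative sign under these settings thus does not by itself set Nr3c1 apart from other genes.

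Genes that the glucocorticoid receptor is known to induce had mostly negative log2 fold changes, with none past the edgeR test and overlapping groups for 14 of 15. Their CPM summed to 7099 to 10167 in controls and 4504 to 9144 in Sox17fl/fl hypoxia libraries, with overlap. Of 15 tested, 13 had a negative and 2 a positive log2 fold change (median −0.50), where 50.4% of all tested genes were negative (median −0.01). The list median lay between −0.71 and −0.14 over 20 alternatives. The circadian repressor gene Klf9 was at 1643 ± 369 and 945 ± 604 CPM (log2 fold change −0.80, SE 0.44), and the sulfotransferase gene Sult1a1 at 195 ± 62.5 and 34.5 ± 29.1 CPM (−2.53, SE 0.73, edgeR adjusted p = 0.346). The groups did not overlap for Sult1a1, which DESeq2 on all genes called (adjusted p = 0.0154). The phosphatase gene Dusp1 stood at 603 ± 497 and 296 ± 284 CPM with overlapping groups. The most abundant gene of the list, the NF-kappaB inhibitor gene Nfkbia, was nearly level at 3165 ± 504 and 3198 ± 1061 CPM (0.01, SE 0.30), as was the cell cycle inhibitor gene Cdkn1a at 1434 ± 369 and 1378 ± 721 CPM (−0.01, SE 0.44).

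The chaperones that hold the unliganded receptor had mostly positive log2 fold changes. Of 7 tested genes for receptor chaperones and for the enzymes that activate or inactivate glucocorticoids, 6 were positive and 1 negative (median 0.82), and none passed the test. Hsp90ab1 was at 1512 ± 305 and 3786 ± 1452 CPM with no overlap between the groups (log2 fold change 1.37, SE 0.35, edgeR adjusted p = 0.346). It passed an adjusted p of 0.05 in 5 alternatives, between 0.00102 with DESeq2 on filtered genes and 0.0414 with limma-voom. Hsp90aa1 was at 309 ± 74.1 and 678 ± 335 CPM (1.17, SE 0.41), and the groups overlapped. The co-chaperone gene Fkbp4 stood at 149.8 ± 57.5 and 199 ± 60.6 CPM, and Hspa8 at 540.0 ± 134 and 599 ± 188 CPM. The list median lay between 0.13 and 1.22 over 20 alternatives. The 0.13 came with the replicate number as a block, where the median of all genes was −0.57. With 3 Sox17fl/fl hypoxia libraries summed the list median was 0.30. Heat shock genes share sequence with processed pseudogenes, so their counts are uncertain. The epithelial markers given above were higher in the same group. Within it, Hsp90ab1 ran from 2527 CPM in library 1 to 5741 CPM in library 3. Alveolar type 2 cell markers were at 2082 CPM in library 1 and 2128 CPM in library 3, and club and ciliated cell markers at 5599 and 3948 CPM. The part of these cells in the chaperone values was not tested.

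Rxra encodes the retinoid X receptor alpha, the common heterodimer partner of the PPARs, retinoic acid receptors and other family members. The gene lies on chromosome 2, 27676440 to 27762957, plus strand. It had 83.0, 24.4, 44.8 and 31.5 CPM in the controls and 61.8, 47.4, 33.1 and 34.6 CPM in the Sox17fl/fl hypoxia libraries. All 4 Sox17fl/fl hypoxia libraries lay inside the control range. The log2 fold change was −0.05 (SE 1.07, edgeR adjusted p = 1.00), and its sign varied with the setting, between −0.25 and 0.45. Of the other retinoid X receptor genes, Rxrb was at 83.4 ± 23.7 and 39.3 ± 33.8 CPM (log2 fold change −1.02), and Rxrg had 0 counts in all 8 libraries.

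Genes that supply or remove retinoids were few in the pulldown: 5 of 13 were tested, 2 positive and 3 negative (median −0.13), none past the test. Cyp26b1, which degrades retinoic acid, was at 219 ± 56.8 and 194 ± 136 CPM. Aldh1a1, which makes retinoic acid, was at 194 ± 63.5 and 304 ± 172 CPM, and the retinal reductase gene Dhrs3 at 114 ± 41.1 and 186 ± 223 CPM. Rbp4, the retinol carrier gene, stood at 20.5 ± 36.4 and 7.22 ± 9.80 CPM. The groups overlapped for each of these 4 genes.

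The 3 PPAR genes, whose products are fatty acid sensors that pair with the retinoid X receptor, were sparse. Pparg (chromosome 6, 115360951 to 115490399, plus strand), the receptor of thiazolidinediones, had 72 counts in control library 1, 785 in Sox17fl/fl hypoxia library 4 and 0 in the other 6 libraries. These correspond to 6.81 and 70.3 CPM, so 91.2% of its summed CPM came from a single library. That library had 10013 CPM of pan-endothelial markers, the lowest of the 8, and 9459 CPM of fibroblast markers. Of the latter, 8208 CPM came from Gsn, the gelsolin gene, and without it that library had 1251 CPM and Sox17fl/fl hypoxia library 2 had 1267 CPM. Library 4 also held 2918 CPM of alveolar type 2 cell markers, but library 2 of that group held 4207 CPM with 0 Pparg counts. Alveolar macrophage markers without Car4, the most abundant of their list, summed to 74.5 CPM in library 4. They summed to 123 to 305 CPM in the rest of its group and 2.84 CPM in control library 1. The adipocyte markers summed to 0.0896 CPM in Sox17fl/fl hypoxia library 4, with the defining genes Adipoq and Retn at 0 counts in all libraries. The part of these other cells in the Pparg value was not tested.

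Ppard (chromosome 17, 28232700 to 28301474, plus strand), the most widely expressed PPAR gene, had 162, 0, 34 and 93 counts in control libraries 1 to 4, and 5, 249, 1 and 0 in Sox17fl/fl hypoxia libraries 1 to 4. Its group means were 6.52 ± 6.70 and 6.72 ± 13.1 CPM, the second resting on library 2. The log2 fold change was −0.04 (SE 2.35, edgeR adjusted p = 1.00), and −5.04 without Sox17fl/fl hypoxia library 2. Ppara (chromosome 15, 85734983 to 85802819, plus strand), the receptor that drives fatty acid oxidation in liver, had 2, 10, 113 and 0 counts in control libraries 1 to 4, and 5, 1, 9 and 0 in Sox17fl/fl hypoxia libraries 1 to 4. Ppara and Pparg were not tested in the filtered fit, and without a filter their edgeR adjusted p values were 0.924 and 0.790.

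PPAR target genes were measured more deeply than the receptors themselves. Of 21 tested, 11 had a positive and 10 a negative log2 fold change (median 0.08), with 0 past the test. Their CPM summed to 4861 to 6775 in controls and 2130 to 4848 in Sox17fl/fl hypoxia libraries, without overlap. Without Hilpda the sums were 3362 to 4642 and 1927 to 4329 CPM and overlapped. Hilpda, an inhibitor of lipolysis, stood at 1828 ± 286 and 422 ± 160 CPM (log2 fold change −2.08, SE 0.36, edgeR adjusted p = 0.119). The lipoprotein lipase gene Lpl was at 1346 ± 489 and 610.2 ± 533 CPM (−1.10, SE 0.51), the fatty acid translocase gene Cd36 at 808 ± 138 and 544 ± 182 CPM (−0.54, SE 0.33), and the mitochondrial carrier gene Ucp2 at 739 ± 153 and 471 ± 224 CPM (−0.62, SE 0.38). The groups did not overlap for Hilpda and overlapped for the other 3. The sign of the list median varied with the setting, between −0.82 and 0.52. The −0.82 came from limma-voom with sample weights, where the median of all genes was −0.70. Under the stricter floor that leaves 1641 genes in all the list median was −0.65, the value of Ucp2. Most of the 21 genes fell below that floor. Hilpda passed an adjusted p of 0.05 in 6 alternatives (between 7.82e-06 and 0.0211), which include DESeq2 and limma-voom.

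Nr4a1 encodes NUR77, an orphan receptor that is transcribed as an immediate early gene after growth factors, shear stress or cyclic AMP. The gene lies on chromosome 15, 101254269 to 101274795, plus strand. Its promoter is printed because it holds repeated copies of a cyclic AMP response-like element. The 250 bases before the RefSeq start (GRCm38.p6, chr15:101266596-101266845, plus strand) are given 5′ to 3′, with the element TGCGTCA in capitals.
Nr4a1: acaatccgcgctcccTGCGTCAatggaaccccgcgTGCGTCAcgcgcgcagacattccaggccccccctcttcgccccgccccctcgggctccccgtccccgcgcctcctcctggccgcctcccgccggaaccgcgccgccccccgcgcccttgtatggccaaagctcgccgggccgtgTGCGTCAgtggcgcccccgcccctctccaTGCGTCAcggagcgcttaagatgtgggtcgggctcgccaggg
The element was searched on both strands and matched 4 times. Of 32851 RefSeq promoter windows of this length, 574 held it at least once (1.75%) and 1 window, that of Nr4a1, held it 4 times or more. Each match also contains the shorter half-site TGACG, read on the opposite strand, which 17.8% of windows held. A match describes these letters and does not show that a factor is bound.

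Nr4a1 had 15.1, 23.2, 12.5 and 4.46 CPM in the controls and 114, 14.3, 0.286 and 13.4 CPM in the Sox17fl/fl hypoxia libraries. Library 1 of the second group, with 1468 counts, lay above and library 3, with 2 counts, below every control, and the other 2 lay inside the control range. The log2 fold change was 1.35 (SE 1.81, edgeR adjusted p = 1.00), and it turned to −0.64 without Sox17fl/fl hypoxia library 1.

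Sox17fl/fl hypoxia library 3, the smallest library, was at either end for other early response genes. Of 15 such genes with a count in any library, 9 had at most 3 counts in Sox17fl/fl hypoxia library 3, against 1 to 4 genes in each other library. A further 3 (Klf4 at 2892, Jund at 728 and Ier3 at 279 CPM) were highest there of all 8. That was not particular to it, since 4 genes were highest in control library 3 and 4 in Sox17fl/fl hypoxia library 1. Egr1, Ier2 and Zfp36 had 0 counts in Sox17fl/fl hypoxia library 3 and 1094, 1212 and 332 counts in library 1 of that group. Myc had 1052 counts in that library 1 and 0 or 1 in the other 7. These genes were named after their values were seen. Over the groups the list did not stand apart: of 11 tested, 4 were positive and 7 negative (median −0.15), none past the test. Klf2, a shear-responsive factor, was at 2620 ± 218 and 1505 ± 847 CPM (log2 fold change −0.80, SE 0.38). The related Klf4 was at 1957 ± 248 and 1694 ± 903 CPM, Jun at 1388 ± 211 and 1061 ± 463 CPM, Jund at 373 ± 54.4 and 451 ± 242 CPM, and the survival gene Ier3 at 207 ± 52.0 and 111 ± 113 CPM. The other NR4A genes were barely detected: Nr4a2 had 124 counts in Sox17fl/fl hypoxia library 4 and 0 to 2 elsewhere, and Nr4a3 had 0 to 4 counts in every library.

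Nr2f2 encodes COUP-TFII, an orphan receptor that maintains venous fate in part by repressing Notch signalling. The gene lies on chromosome 7, 70351944 to 70366735, minus strand. It had 149, 105, 101 and 91.5 CPM in the controls and 96.4, 15.2, 286 and 116 CPM in the Sox17fl/fl hypoxia libraries. The controls were close together. The Sox17fl/fl hypoxia libraries ran from the lowest to the highest value of all 8. The log2 fold change was 0.28 (SE 0.73, edgeR adjusted p = 1.00), −0.58 without library 3 and 0.71 without library 2 of that group. B130024G19Rik, transcribed from the opposite strand, overlaps Nr2f2 and had 207 and 102 counts in control libraries 1 and 3 and 0 elsewhere. No source used here states whether counting used strand, so reads where the genes overlap cannot be assigned with certainty.

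Whether venous markers followed Nr2f2 from library to library was not tested. In Sox17fl/fl hypoxia library 3, where Nr2f2 was highest, they summed to 1827 CPM, and in library 2, where it was lowest, to 1617 CPM. The highest and lowest sums, 2532 and 854 CPM, were in libraries 1 and 4 of that group, where Nr2f2 was at 96.4 and 116 CPM. The groups spanned 1360 to 1881 and 854 to 2532 CPM (two-sided exact permutation p = 0.686, 0.857 adjusted over 15 library measures). Vwf and Lrg1 carried most of this list, at 592 ± 248 and 674 ± 319 CPM for Vwf and 614 ± 48.7 and 823 ± 592 CPM for Lrg1, and the venule marker Ackr1 had 0 counts in all libraries. Of 6 tested venous genes 3 were positive and 3 negative. Slc6a2, the noradrenaline transporter gene, was at 179 ± 36.6 and 53.0 ± 29.5 CPM without overlap (log2 fold change −1.75, SE 0.59, edgeR adjusted p = 0.493), and DESeq2 on all genes called it. Lymphatic markers summed to 1633 to 2204 and 1305 to 3273 CPM, mostly Lyve1 at 1401 ± 333 and 991 ± 1086 CPM and Ccl21a at 336 ± 46.3 and 745 ± 397 CPM. Prox1, which defines lymphatic endothelium and acts with COUP-TFII, had 1 count in all 8 libraries together.

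Nr2f1 (chromosome 13, 78188973 to 78199757, minus strand), which encodes the close relative COUP-TFI, had 46 counts in control library 4 and 165 in Sox17fl/fl hypoxia library 2, and 0 to 4 in the other 6. The group means were 0.989 ± 1.92 and 4.49 ± 8.65 CPM. Its edgeR adjusted p without a filter was 0.959. The antisense gene A830082K12Rik overlaps it and had 0 counts in every library.

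The PGC1 coactivators, which bind nuclear receptors such as the PPARs and ERR alpha and raise mitochondrial gene expression, were at or near 0 outside 1 library each. Ppargc1a (chromosome 5, 51454250 to 51567726, minus strand) had 47 counts in control library 4, 1 in control library 3, 1 in Sox17fl/fl hypoxia library 1 and 0 in the other 5. The Sox17fl/fl hypoxia group thus held 1 count in 4 libraries and none at the floor of 3 counts. Ppargc1b (chromosome 18, 61298136 to 61400431, minus strand) had 929 counts in Sox17fl/fl hypoxia library 2, 3 in control library 2 and 0 in the other 6. That single library, at 98.3 CPM, held 99.7% of its summed CPM. Without a filter the edgeR adjusted p values were 0.550 and 0.3603, and DESeq2 gave no p for either.

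A gene confined to a library was common in these data. Of 14071 genes with at least 1 count, 19.5% had over 90% of their summed CPM in a single library, as did Pparg, Ppargc1a and Ppargc1b. That share includes genes with very few counts, which fall in a single library by necessity. It was not computed among genes with as many counts as Pparg or Ppargc1b. Among the 8282 tested genes 3 did, but the expression filter removes most genes confined to a library. The largest share in a library was 22.3% for Nr3c1, 23.0% for Rxra and 29.8% for Nr2f2, below or close to the median of 30.1% over tested genes.

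The promoter of Ppargc1a is shown because it holds a match to ATTGT, the core letters recognised by SOX proteins, in a study of SOX17 loss. The 250 bases before the RefSeq start (GRCm38.p6, chr5:51567726-51567975, minus strand) are given 5′ to 3′ with the match in capitals.
Ppargc1a: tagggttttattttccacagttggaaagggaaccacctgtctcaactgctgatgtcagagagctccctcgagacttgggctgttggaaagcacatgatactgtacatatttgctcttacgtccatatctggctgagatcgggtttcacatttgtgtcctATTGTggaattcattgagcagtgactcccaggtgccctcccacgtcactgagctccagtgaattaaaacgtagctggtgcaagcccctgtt
The letters were searched on both strands, and 27.7% of all windows held at least 1 match, so a match is frequent at this length. In the Nr4a1 window printed above the reverse complement, ACAAT, stands once, at the 5′ end.

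Genes of mitochondrial biogenesis and respiration, which PGC1 coactivators are known to raise, gave no call. Of 21 tested, 15 were positive and 6 negative (median 0.20), none past the test, where 49.6% of all tested genes were positive. The ATP synthase genes Atp5b (415 ± 70.2 and 439.6 ± 144 CPM) and Atp5a1 (383 ± 121 and 418 ± 156 CPM) and the cytochrome oxidase gene Cox7a2 (415 ± 120 and 428 ± 46.2 CPM) differed by less than their spread. Atp5o was at 465 ± 66.8 and 732 ± 299 CPM (log2 fold change 0.69, SE 0.37). The complex I gene Ndufb5 was lower without overlap, at 196 ± 35.5 and 79.1 ± 53.4 CPM (−1.30, SE 0.56, edgeR adjusted p = 0.865). Polrmt, the mitochondrial RNA polymerase gene, was higher without overlap, at 1.98 ± 3.85 and 117 ± 56.8 CPM (5.88, SE 1.78, edgeR adjusted p = 0.377). DESeq2 called Polrmt, with an adjusted p of 0.00262 on all genes.

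The wider family gives the setting of the 8 receptors. Of 49 nuclear receptor genes, 21 to 24 reached 3 counts in each control library and 16 to 20 in each Sox17fl/fl hypoxia library, in libraries where fewer genes of any kind were detected. Nr3c1, Nr2f2 and Rxra together held 24.7% to 29.0% of the family's summed CPM in controls and 22.2% to 35.6% in Sox17fl/fl hypoxia libraries. Of the 41 receptor genes beside the 8, 14 were tested, 4 with a positive and 10 with a negative log2 fold change (median −0.86), none past the test. The list median lay between −1.17 and −0.68 over 20 alternatives. The retinoic acid receptor gene Rarg was at 179 ± 50.7 and 94.0 ± 39.2 CPM (log2 fold change −0.91, SE 0.52), and Nr2c2, which encodes the orphan receptor TR4, at 122 ± 22.2 and 49.3 ± 27.9 CPM (−1.30, SE 0.69). For both genes the groups did not overlap. Rara was at 89.3 ± 45.5 and 58.3 ± 37.1 CPM and Esrra, the gene of the PGC1 partner ERR alpha, at 75.6 ± 35.9 and 105 ± 57.9 CPM, with overlap.

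**Figure D2:**
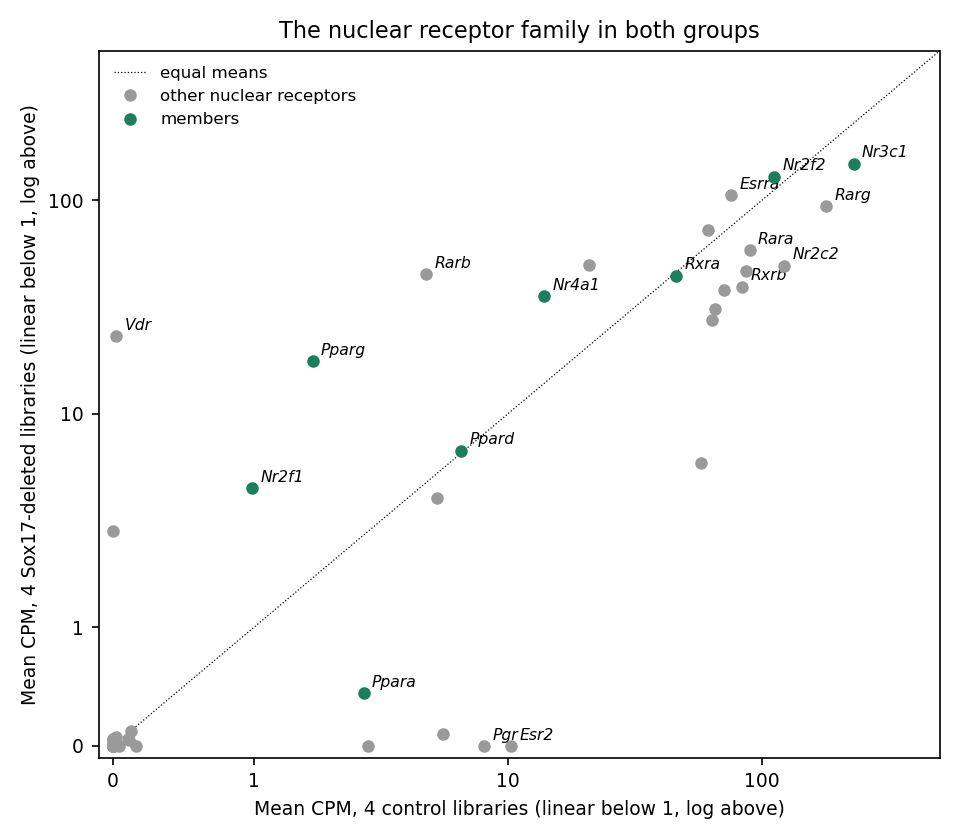
Mean level of each of the 49 nuclear receptor genes in the 4 control libraries (horizontal) and the 4 Sox17fl/fl hypoxia libraries (vertical), in CPM (linear below 1, log scale above), with the 8 receptors described here in green and the others in grey. Nr3c1, Rarg and Nr2f2 lie among the most abundant, Rxra near the line of equal means, and Pparg, Nr2f1 and Ppara, which rest on few libraries, far from it.

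Coregulators were tested for 17 of 22 genes, 10 positive and 7 negative (median 0.13), none past the test. Ncor1, a corepressor of unliganded receptors, was the most abundant at 929 ± 170.3 and 938 ± 375 CPM (log2 fold change 0.06, SE 0.35). The acetyltransferase gene Crebbp was at 195 ± 129 and 325 ± 115 CPM, the methyltransferase gene Prmt1 at 108 ± 28.0 and 147 ± 23.9 CPM and Lpin1, a phosphatase that also coactivates PPARs, at 117 ± 64.1 and 108 ± 127.5 CPM. Med1, the Mediator subunit that contacts nuclear receptors, was lower without overlap, at 144 ± 66.5 and 38.2 ± 28.7 CPM (−1.90, SE 1.19, edgeR adjusted p = 1.00). Tbl1x, a subunit of the NCOR complex, was at 11.8 ± 12.7 and 0.597 ± 1.10 CPM with overlap.

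**Figure D3:**
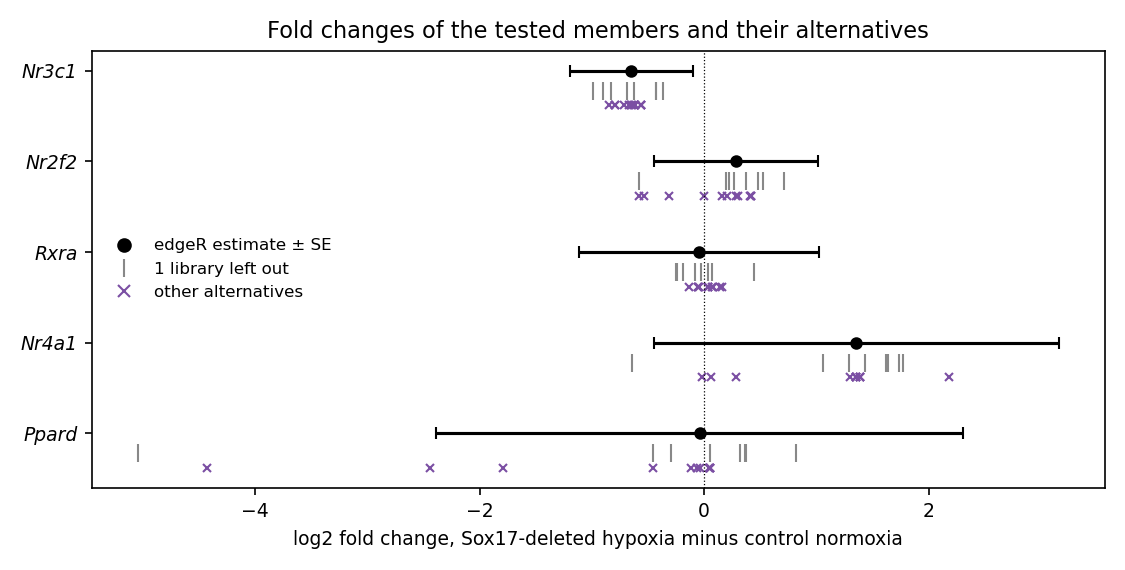
Log2 fold change of the 5 tested genes, Sox17fl/fl hypoxia minus control normoxia, as the edgeR estimate with its standard error (black), with 1 library left out (grey ticks) and under the other alternatives (purple crosses). Nr3c1 stays below 0 throughout, between −0.99 and −0.37, whereas Ppard, Rxra, Nr4a1 and Nr2f2 lie on both sides of 0. With limma-voom and with the replicate number as a block, the median of all genes lay between −0.71 and −0.57.

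**Figure D4:**
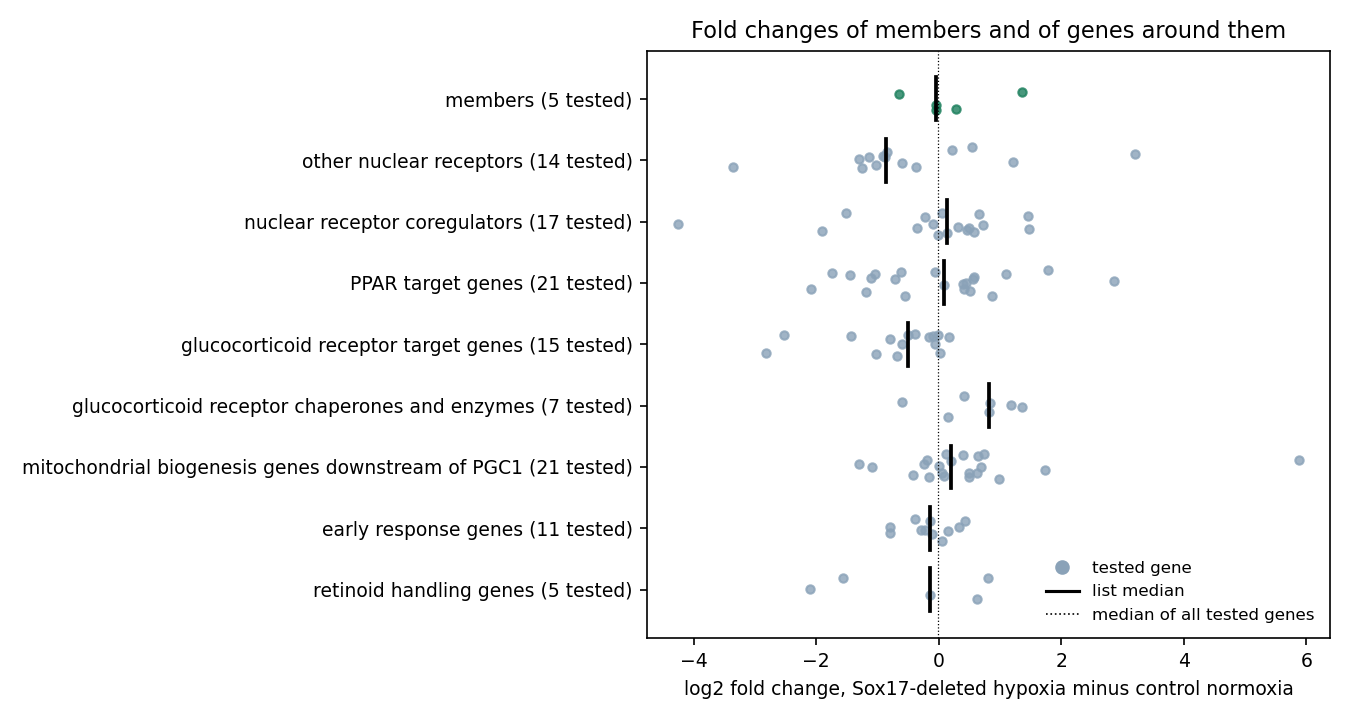
Log2 fold change of every tested gene in each list, Sox17fl/fl hypoxia minus control normoxia, with the list median as a black bar and the median of all tested genes as a dotted line. Medians run from −0.86 for the other nuclear receptors to 0.82 for glucocorticoid receptor chaperones and enzymes, and no gene passed the edgeR test.

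For the 2 genes whose mean reached 50 CPM, the most similar profiles over the 8 libraries were sought among abundant genes, by Pearson correlation of log2(CPM + 1). Nr3c1 was most like H2afz, which encodes the histone variant H2A.Z (r = 0.99), and Pik3ip1, an inhibitor of PI3 kinase (r = 0.92). Nr2f2 was most like the chromatin regulator gene Mier1 (r = 0.98) and the zinc exporter gene Slc30a1 (r = 0.98). These are the highest of 1614 correlations for Nr3c1 and 1615 for Nr2f2, over the same 8 libraries, and they describe these libraries only.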

How the data were processed

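Ribosome-bound RNA was measured in 8 lung libraries by 3′ tag sequencing. The deposited values are raw counts of reads per gene symbol, and the submitters' processing notes name Bowtie2, bedtools and the mm10 build without versions. The 44 repeated rows were summed. Levels (CPM) are counts scaled to the library total. Differences were tested with edgeR 4.0.16 in R 4.3.3 (quasi-likelihood test, TMM factors, filterByExpr, Benjamini-Hochberg adjustment over all 8282 tested genes, threshold 0.05). Single values were compared with exact permutation tests in SciPy 1.17.1. Alternatives were other scalings and filters, DESeq2 1.42.0, limma-voom 3.58.1, a replicate block, leaving out each library, and summing Sox17fl/fl hypoxia libraries 2, 3 and 4, whose deposited names share a number. The edgeR script was tested on simulated data. No source used here says that libraries came from separate animals, so p-values measure the spread between libraries, which may be technical. The floor of 3 counts allows for counting error only, and the sources used here name no molecular identifiers.

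The genes, lists and tests were chosen with earlier results of these data known. The text names all 10 genes and, from each pathway list, the 4 tested genes with the highest mean CPM and the 2 with the lowest p, and from each cell type list the 2 with the highest mean CPM where a result turns on them. Similar profiles were sought among abundant tested genes (1614 and 1615 candidates), with a pseudocount of 1 CPM, leaving out predicted genes and sex-linked transcripts. Sums without Gsn, Hilpda or Car4 were added after seeing the data. Genes named outside this rule were chosen after their values were seen. Positions are from GENCODE M21 (GRCm38), and promoters from RefSeq. Some results are not reported here.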

Additional observations from a re-analysis of the deposited data

Results flagged for a closer look

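A library was marked where its gap to the nearest of the other 3 of its group, divided by the group's range, was above Dixon's 95% critical value for 4 samples. This held for 21 of 126 groups of 4 values, where chance gives about 1 in 20 for normally distributed values, and for 11 of the 20 groups of the 10 genes. In 5 of these 11 the other 3 libraries were at 0, which marks the group whatever the value, so the number marked is not read against chance. Pparg reached 6.81 CPM in control library 1 and 70.3 CPM in Sox17fl/fl hypoxia library 4. Ppard reached 26.4 CPM in Sox17fl/fl hypoxia library 2. Ppara reached 9.71 CPM in control library 3. Nr4a1 reached 114 CPM in Sox17fl/fl hypoxia library 1. Nr2f1 reached 3.87 CPM in control library 4 and 17.5 CPM in Sox17fl/fl hypoxia library 2. Ppargc1a reached 3.95 CPM in control library 4 and 0.0774 CPM, a single count, in Sox17fl/fl hypoxia library 1. Ppargc1b reached 0.271 CPM in control library 2 and 98.3 CPM in Sox17fl/fl hypoxia library 2.

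Among genes of the wider lists, the Sox17fl/fl hypoxia libraries that stood apart were library 4 for Prmt1 (low, 112 CPM), library 1 for Tbl1x (2.25 CPM), library 2 for Atp5b (656 CPM) and library 3 for Ier3 (279 CPM) and Dhrs3 (519.5 CPM). Control library 1 stood apart for Polrmt (7.76 CPM), Rbp4 (75.0 CPM), Ier3 (low, 129.5 CPM) and the adipocyte markers (low, 3.69 CPM), and control library 4 for Klf4 (low, 1586 CPM).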

How the results depend on the processing

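None of the 10 genes was called under any of the 20 alternatives, but all 10 were tested only without a filter. A stricter floor on mean CPM tested 1 of them, and the other alternatives tested 5 to 8. Over all genes edgeR called 0, and the count was 17 without a filter, 4 among the 1641 genes left by a stricter floor on mean CPM, 469 and 155 with DESeq2 on all and on filtered genes, 44 and 14 with limma-voom without and with sample weights, and 1 each with robust estimation and with 3 Sox17fl/fl hypoxia libraries summed. Leaving out each library gave 0 to 5, the 5 without Sox17fl/fl hypoxia library 1. The difference in detected genes of −1631 ran from −1718 to −1488, where 3 against 4 libraries cannot go below an exact permutation p of 0.0571. Of 96 alternatives for the tested genes of the 10, 25 changed sign, none for Nr3c1. With RLE factors Ppard was at 0.057, Rxra 0.037 and Cdkn1a 0.092. DESeq2 gave 0.056, 0.037 and 0.090 on all genes and 0.057, 0.037 and 0.092 on filtered genes. With library totals Ppard was at 0.044, and without a filter Cdkn1a at 0.0031. With upper-quartile factors Ncor1 was at −0.043, Nfkbia −0.058 and Cox7a2 −0.027. With limma-voom Rxra was at 0.16, Nr4a1 −0.016, Nr2f2 −0.53, Ncor1 −0.16 and Dhrs3 −0.095, and with sample weights Rxra 0.081, Nr2f2 −0.58, Ncor1 −0.16, Jund −0.030 and Dhrs3 −0.18. With libraries summed Rxra was at 0.14, Ncor1 −0.25, Lpin1 0.59 and Cdkn1a 0.15. Leaving out each library, the log2 fold change ran from −5.04 to 0.82 for Ppard, −0.25 to 0.45 for Rxra, −0.64 to 1.77 for Nr4a1, −0.58 to 0.71 for Nr2f2, −0.27 to 0.31 for Ncor1, −1.38 to 0.31 for Lpin1, −0.075 to 0.20 for Nfkbia, −0.22 to 0.34 for Cdkn1a, −0.12 to 0.20 for Cox7a2, −0.092 to 0.20 for Atp5b, −0.077 to 0.34 for Atp5a1, −0.069 to 0.68 for Jund, −0.61 to 0.14 for Klf4, −2.99 to 1.60 for Rbp4, −0.65 to 1.17 for Dhrs3 and −0.47 to 0.23 for Cyp26b1. The cause was not tested. The median of all genes was −0.71 and −0.70 with limma-voom and −0.57 with the block, against −0.01, so signs there are relative to that shift. List medians changed sign over alternatives for coregulators (−1.46 to 0.38), mitochondrial genes (−0.10 to 0.38), early response genes (−0.84 to 0.11) and retinoid genes (−0.65 to 0.65).

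Libraries with the same replicate number did not deviate together (r of −0.05 to 0.01 over 3705 genes), so the numbers are not taken to pair them. The replicate block called 0 genes, with Rxra at 0.073, Nr2f2 −0.32, Ncor1 −0.051, Nfkbia −0.025 and Dhrs3 −0.042.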

Other observations

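Among the receptors beside the 8, the following were picked out after their values were seen. Pgr, the progesterone receptor gene, had 9, 210, 145 and 0 counts in control libraries 1 to 4, and Esr1, the oestrogen receptor alpha gene, had 16, 83, 23 and 3. Both had 0 counts in all 4 Sox17fl/fl hypoxia libraries, where fewer genes were detected in general. Rarb, a retinoic acid receptor gene, had 125, 1, 0 and 85 counts in control libraries 1 to 4, and 26, 820, 235 and 651 in Sox17fl/fl hypoxia libraries 1 to 4 (log2 fold change 3.21, SE 2.16, edgeR adjusted p = 1.00). Vdr, the vitamin D receptor gene, had 871 counts in Sox17fl/fl hypoxia library 2, 1 in control library 1 and 0 elsewhere.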
